A study of Mus musculus with 32 samples.

Results

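The Zfp genes of the mouse, the genes with a symbol of Zfp and a number, were compared between the soma and the dendrites of single hippocampal neurons. They were chosen by symbol and by detection, as all such genes with at least 1 read on their 3′UTRs in at least 16 of the 32 samples. Of 333 Zfp symbols in the count table, 190 met this rule and 143 did not, 7 of which had no read in any sample. The 190 were part of 10880 genes that passed the same filter, out of 44081 in the table. Neurons of embryonic day 18 C57BL/6 mice were grown for 15 days. From each of 16 neurons, taken from several cultures and days, the dendrites were cut off and drawn into a tube of their own, apart from the soma. There was no treatment, all samples were of the same strain, and each sample held the polyadenylated RNA of 1 compartment of 1 cell. The RNA was amplified by aRNA, a method of repeated in vitro transcription, in 3 rounds for neurons 1 to 4 and in 2 rounds for neurons 5 to 16.

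Most proteins of this family carry C2H2 zinc fingers, short loops in which 2 cysteines and 2 histidines hold a zinc ion, and an array of such fingers reads a stretch of DNA. Many also have a KRAB box, which recruits the corepressor Trim28 (KAP1) and with it enzymes that set repressive chromatin, often on repeats derived from retroviruses. Such factors act in the nucleus, and the family lies in clusters of duplicated genes. Some members bind RNA or act in ubiquitylation or on the ribosome instead.

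Dendrite libraries held 646521 to 6954420 reads on 3′UTRs and soma libraries 925525 to 21169974. The deposited values were read counts, given here as CPM (counts of a gene scaled to a common library total, with TMM factors), and without molecular identifiers they are not independent molecules. The summed level of the pyramidal neuron markers was 395 to 6916 CPM in dendrites (median 2494) and 102 to 2423 in somas (median 521). That of 3 interneuron markers was 1737 to 11317 CPM (median 4033) and 1126 to 19881 CPM (median 9639). In both compartments the interneuron median was the higher. The astrocyte list had medians of 18.0 CPM in dendrites and 10.9 in somas, with reads of 4 of its 5 genes and Gjb6 at 0. The oligodendrocyte medians were 8.30 and 1.59 CPM (all 5 markers had reads), the microglial medians 1.18 and 0.199 CPM (all 5), and the endothelial medians 1.64 and 0.193 CPM, with reads of 2 of 3 markers and Cldn5 at 0. The highest sums of these lists in a dendrite were 562, 162, 386 and 43.7 CPM, and in a soma 133, 134, 8.88 and 129 CPM. The part of other cell types in the results was not tested. The summed level of 3 RNAs that mostly stay in the nucleus (Malat1, Neat1 and Meg3) had a median of 480 CPM in dendrites and 1231 in somas. ERCC spike-in RNA, which the paper added to each tube, had 65 to 283471 reads in dendrites and 59 to 95838 in somas. The values given here were not scaled by these reads. Whether an RNA had fewer molecules in the compartment or was captured less was not tested.

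Zfp transcripts were found more often in somas than in dendrites. Dendrites had reads of 109 ± 38.1 of the 190 genes (SD, n = 16) and somas of 157 ± 25.8 (SD, n = 16). The soma had 48.6 ± 38.7 more of them (SD, n = 16 neurons) and was ahead in 15 of 16 neurons. In neuron 5 the order was reversed (dendrites 174, soma 138), and the dendrites of neuron 15 had the fewest, 27. The mean share of the family was 57.3% in dendrites (14.2% to 91.6%) and 82.8% in somas (50.5% to 98.4%), beside 68.8% and 88.0% of all genes that passed the filter. Neuron 12 was the only neuron with more 3′UTR reads in dendrites (2116175) than in the soma (1823821). With the reads of each pair taken at the smaller of its totals, the difference was 39.0 ± 40.4 genes (SD, n = 16), with the soma ahead in 14 neurons. The neurons amplified in 2 rounds differed by 49.6 ± 42.1 genes (SD, n = 12), those amplified in 3 by 45.5 ± 31.4 (SD, n = 4). Since the family was chosen on detection, no test was made of these values. The share of all reads that fell on the 190 genes was 0.509% ± 0.149 in dendrites and 0.549% ± 0.0689 in somas (SD, n = 16 each). This share was higher in the soma in 10 of 16 neurons, and its ranges overlapped.

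**Figure D1:**
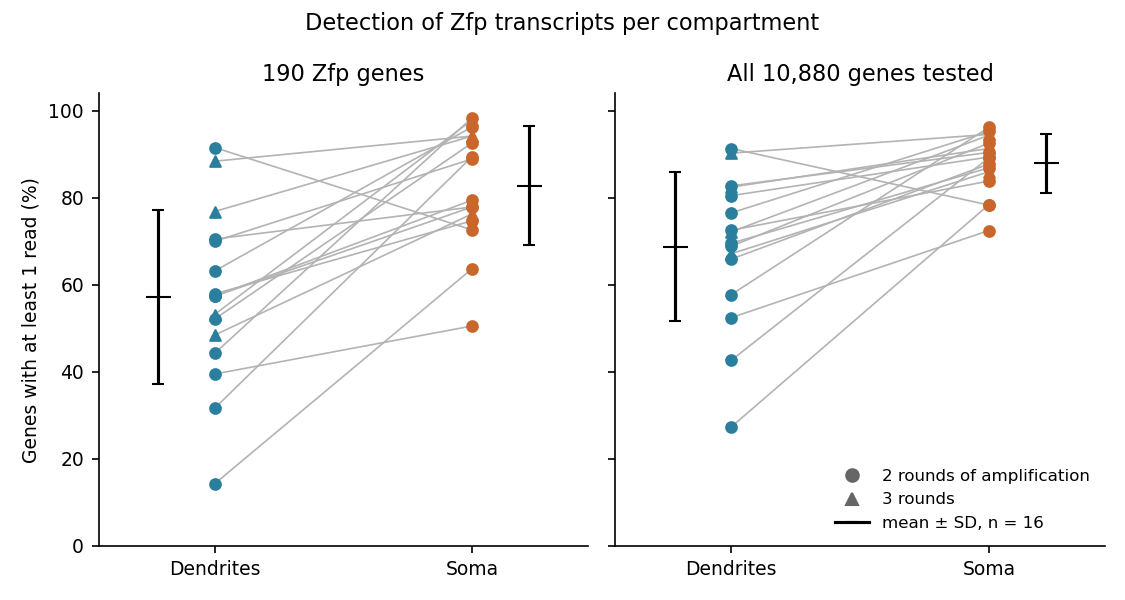
Share of genes with at least 1 read (y axis, %) in the dendrites and the soma of each neuron, for the 190 Zfp genes (left) and all 10880 genes tested (right). Lines join the compartments of a neuron, triangles are neurons with 3 rounds of amplification, and bars are the mean ± SD (n = 16). The Zfp genes averaged 57.3% in dendrites and 82.8% in somas, and all genes 68.8% and 88.0%.

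Within a neuron, more Zfp genes were on average read in the soma only than in the dendrites only. On average 94.0 ± 36.0 of the Zfp genes had reads in both compartments, 63.4 ± 30.2 in the soma only and 14.8 ± 12.3 in the dendrites only (SD, n = 16). Of the Zfp genes found in dendrites, 85.5% ± 11.2 were also found in the soma of the same neuron, beside 91.3% ± 5.27 of all genes. Among the Zfp genes with reads in the neuron, 65.3% ± 12.6 were higher in the soma (SD, n = 16), from 38.9% in neuron 5 to 85.2% in neuron 16. Among those with reads in both compartments, 50.7% ± 10.2 were higher in the soma, close to an even split, and the median log2 ratio of dendrites to soma was -0.17 ± 0.70 (SD, n = 16). For all genes these shares were 61.8% ± 8.38 and 51.7% ± 3.19. Neuron 15, with 20 Zfp genes in both compartments, had the lowest such share at 25.0%, and neuron 3 had the highest at 63.9%. The TMM factors draw genes read in both compartments towards equal levels. The split among them therefore does not show where the difference between compartments lies.

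**Figure D2:**
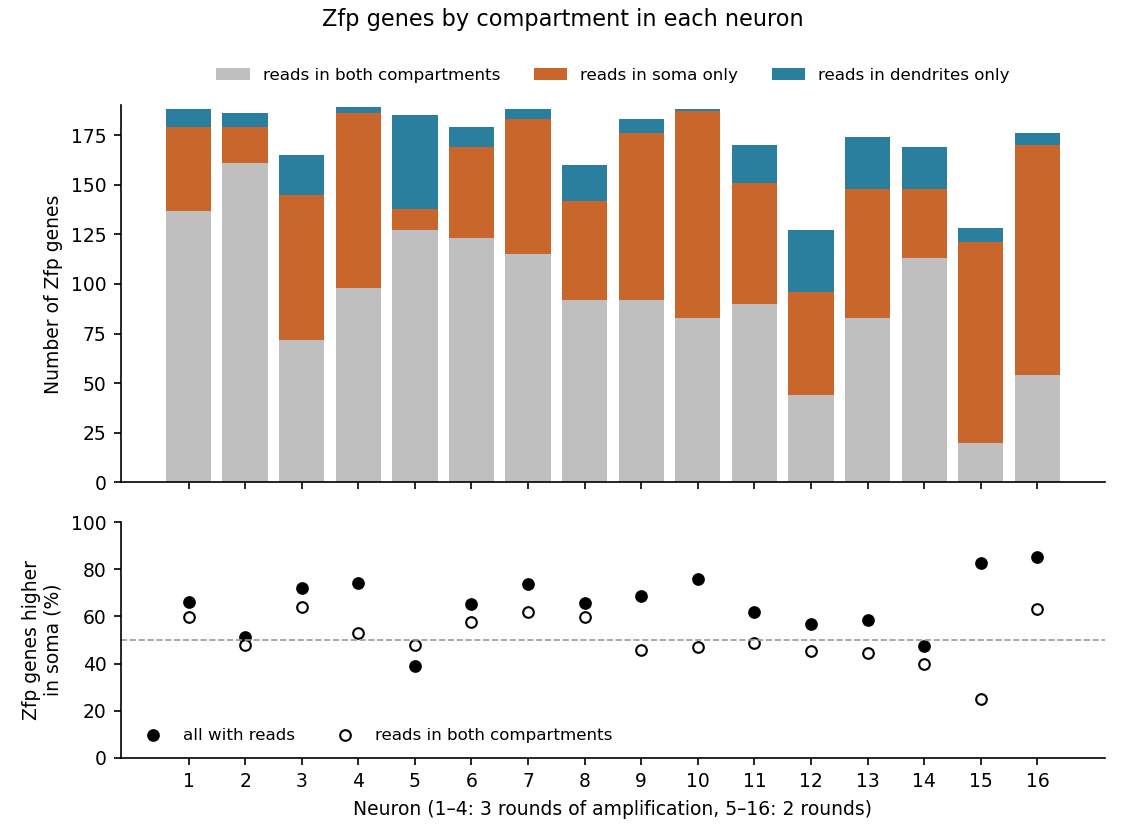
Top, number of Zfp genes (y axis) with reads in both compartments, in the soma only or in the dendrites only, for each of the 16 neurons (x axis). Bottom, share of Zfp genes (%) with a higher CPM in the soma, over all with reads in the neuron (filled) and over those with reads in both compartments (open). The filled points averaged 65.3% and the open points 50.7%.

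Single genes of the family were absent from many samples and uneven between neurons. A Zfp gene had reads in 4 to 16 dendrites (median 9) and in 6 to 16 somas (median 13), and 176 of the 190 (92.6%) were found in more somas than dendrites, beside 82.4% of all genes tested. The 6 found in more dendrites than somas were Zfp703, Zfp937, Zfp618, Zfp873, Zfp811 and Zfp846, named here after their values were seen. Reads in all 16 somas were found for 33 genes (17.4%, all genes 40.7%) and in all 16 dendrites for 1, Zfp260 (0.526%, all genes 8.01%). For the median Zfp gene, the highest dendrite held 44.5% of the CPM summed over all dendrites, and the highest soma 24.2% of that over all somas. The same values for all genes were 35.6% and 21.3%. In 9 Zfp genes (4.74%, all genes 3.57%) a single sample held over 50% of all reads. At the threshold, 15 members had reads in exactly 16 samples (4 to 10 dendrites and 6 to 12 somas, with 13 to 605 dendrite reads and 95 to 2879 soma reads). The 13 Zfp symbols with exactly 15 samples, among them Zfp120, Zfp711 and Zfp809, had reads in 2 to 9 dendrites and 6 to 13 somas, with 5 to 502 and 150 to 1902 reads.

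**Figure D3:**
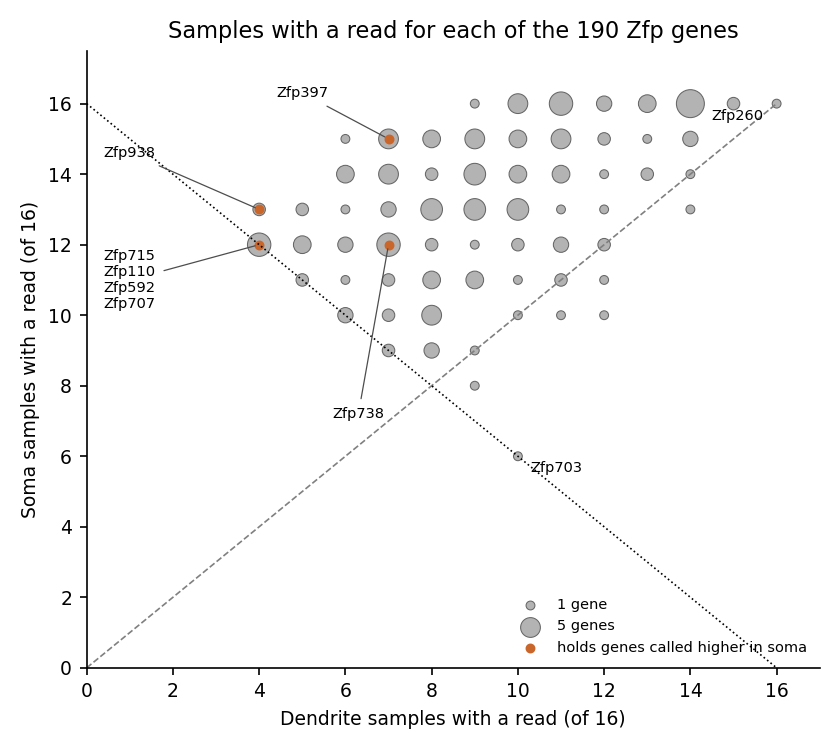
Number of dendrite samples (x axis) and soma samples (y axis) with at least 1 read for each of the 190 Zfp genes, with the area of a circle giving the number of genes at that place. The dotted line is the threshold of 16 samples and the dashed line marks equal numbers. Most genes, 176, lie above the dashed line, and 4 of the 7 genes called higher in soma lie on the dotted line at 4 dendrites and 12 somas.

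To ask which of these genes differed between the compartments, the counts of all 10880 genes were fitted with edgeR's quasi-likelihood test with the neuron as a block. A gene was called at an adjusted p (Benjamini-Hochberg over all genes) of at most 0.05. A log2 fold change below 0 means a higher level in the soma. Of the 190 Zfp genes, 7 were called higher in the soma (3.68%), where 5.71% of all genes were, and none was called higher in dendrites (0 genes), where 0.827% of all genes were. At an unadjusted p under 0.05, 61 Zfp genes lay on the soma side, where 26.7% of all genes did, and 1 on the dendrite side (Zfp703), where 3.55% of all genes did. The median log2 fold change was -2.26 for the Zfp genes and -1.49 for all genes, a difference of -0.77. Below 0 were 169 of the Zfp genes (88.9%) and 78.8% of all genes, and 126 of the Zfp genes (66.3%) lay below the median gene. With dendrites rescaled so that the median gene lay near 0, 128 of the Zfp genes (67.4%) and 51.0% of all genes were below 0. In that fit 0 Zfp genes were called in either direction, while 92 of all genes were called higher in the soma and 548 higher in dendrites. The filter needs reads in 16 samples, so a gene found in few dendrites passed only when it was found in many somas. These counts therefore describe the 190 genes and give no support for a difference.

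The calls moved with the test and the design. DESeq2 with the same pairing called 94 Zfp genes higher in the soma (49.5%), where it called 46.2% of all genes, and 2 higher in dendrites (1.05%), where it called 4.26%. Those 2 were Zfp703 (log2 fold change 3.10, adjusted p = 0.0398) and Zfp398 (2.33, adjusted p = 0.0372). Without the block for neuron, edgeR called 1 Zfp gene higher in the soma (0.526%, all genes 0.708%), which was Zfp110, and 1 higher in dendrites (0.526%, all genes 1.44%), which was Zfp607. The median log2 fold change was then -0.24 for the Zfp genes and -0.22 for all genes. The mean CPM was higher in dendrites for 78 of the 190 Zfp genes and the median CPM for 24. Leaving out neuron 5, whose dendrites held more of these RNAs than its soma, gave 22 calls on the soma side, and leaving out neuron 16 gave 0. The share of all genes called in these fits was not compared.

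**Figure D4:**
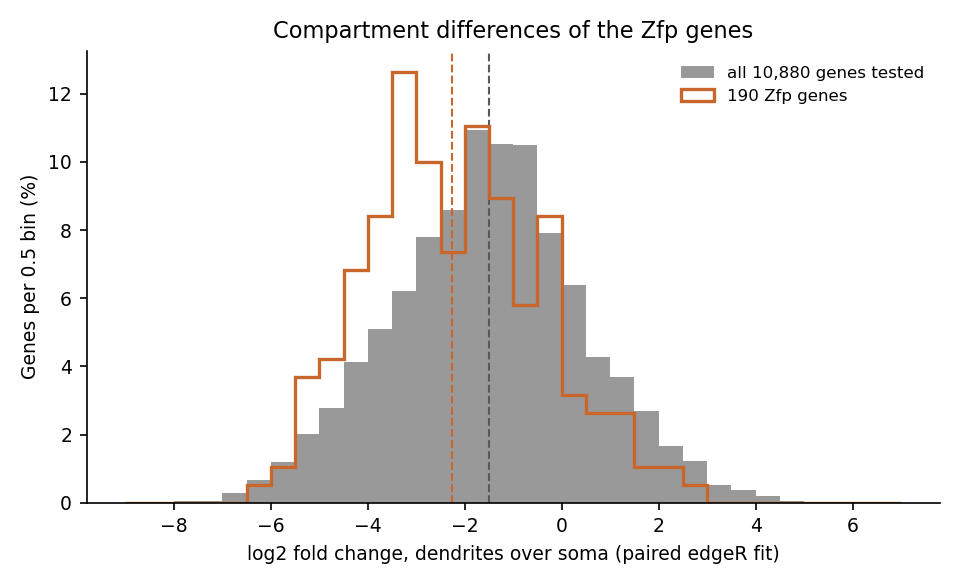
Distribution of log2 fold changes of dendrites over soma from the paired edgeR fit (x axis), as the share of genes per bin (y axis, %), for all 10880 genes tested (grey) and the 190 Zfp genes (orange line). Dashed lines are the medians, -2.26 for the Zfp genes and -1.49 for all genes. Both lie below 0, and the distributions overlap over most of their range.

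The smallest adjusted p on the soma side were those of Zfp715 and Zfp110, both on chromosome 7 and both with a KRAB pattern in the protein. Each had reads in exactly 16 samples, 4 dendrites and 12 somas, so each passed the filter only through the compartment where it was high, and so did Zfp592 and Zfp707. Zfp715 (chr7:43296197-43313294, GRCm38, minus strand) was read in 4 dendrites, at 23.7 CPM in neuron 2 and at 1.55 CPM or less in the other 3. It was read in 12 somas, with a median of 11.1 CPM over all 16 and a highest value of 62.7. In each of the 12 neurons with reads the soma was higher, although the ranges of the compartments overlapped. Its fitted log2 fold change was -5.43 (SE 1.44, adjusted p = 0.0215, edgeR's quasi-likelihood test).

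Zfp110, also called NRIF, is a partner of the neurotrophin receptor p75 that can move from the receptor to the nucleus. It lies at chr7:12834761-12850577 on the plus strand. Its 4 dendrites with reads had 0.536 to 5.41 CPM, and its 12 somas with reads gave a median of 5.75 CPM over all 16 and a highest value of 75.7. The soma was higher in 11 of 12 neurons, with neuron 5 the exception, and the log2 fold change was -5.75 (SE 1.55, adjusted p = 0.0234, edgeR). Of the 7 genes called by edgeR with the block, only Zfp110 was also called without it (log2 fold change -4.70, adjusted p = 0.0229). Zfp369, a close relative (NRIF2), had a log2 fold change of -3.13 (adjusted p = 0.148) and was not called. Each of Zfp715 and Zfp110 was called in 15 of the 16 fits that left out 1 neuron, the exception being neuron 16. Neither was called with dendrites rescaled to the median gene, without the filter, on exon counts or with 3 rounds alone, Zfp715 not without the block and Zfp110 not with 2 rounds alone. In those fits the adjusted p of Zfp715 was 0.0561, 0.125, 0.0745, 0.858 and 0.192, and that of Zfp110 was 0.0511, 0.132, 0.0572, 0.731 and 0.0968 (edgeR).

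The other 5 calls held in fewer of these fits, from 4 to 8 of 16. Zfp738 (chr13:67658685-67687071, minus strand) was read in 7 dendrites, with a median of 0 and a highest value of 88.4 CPM in neuron 11, and in 12 somas with a median of 25.1 and a highest value of 132 CPM. Its soma was higher in 11 of 14 neurons (log2 fold change -6.08, SE 1.81, adjusted p = 0.0358, edgeR). Zfp592 (chr7:80993681-81045164, plus strand) was read in 4 dendrites, up to 50.8 CPM in neuron 12, and in 12 somas up to 27.4 CPM. It had the soma ahead in 11 of 14 neurons although its highest value was in a dendrite (log2 fold change -5.45, adjusted p = 0.0450). Zfp707 (chr15:75969123-75975868, plus strand) was read in 4 dendrites, up to 10.7 CPM, and in 12 somas, up to 94.3 CPM, and its soma was ahead in 11 of 13 neurons (log2 fold change -5.25, adjusted p = 0.0488). Zfp397, on chromosome 18, a zinc finger protein with a SCAN domain, had reads in 7 dendrites, up to 171 CPM in neuron 13, and in 15 somas, up to 111 CPM. The soma was ahead in 11 of 15 neurons (log2 fold change -5.61, adjusted p = 0.0491). For these 4 genes the ranges of the compartments overlapped.

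Zfp938 (chr10:82224850-82241280, minus strand) was called, but its means went the other way. It was read in 4 dendrites, at 0.949, 12.0 and 18.2 CPM in neurons 6, 1 and 7 and at 1610 CPM in neuron 15, the dendrite sample with the fewest Zfp genes. Somas had a median of 10.8 and a highest value of 43.5 CPM, and 13 of them had reads. With only 4 dendrites, Zfp938 thus passed the filter of 16 samples only through the somas. The soma was higher in 11 of 13 neurons and the paired log2 fold change was -5.40 (SE 1.58, adjusted p = 0.0339, edgeR). The mean was 103 ± 402 CPM in dendrites and 14.3 ± 14.8 CPM in somas (SD, n = 16 each). Without the block the log2 fold change was 2.84, and on exon counts with the block it was 1.76, neither of them called.

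**Figure D5:**
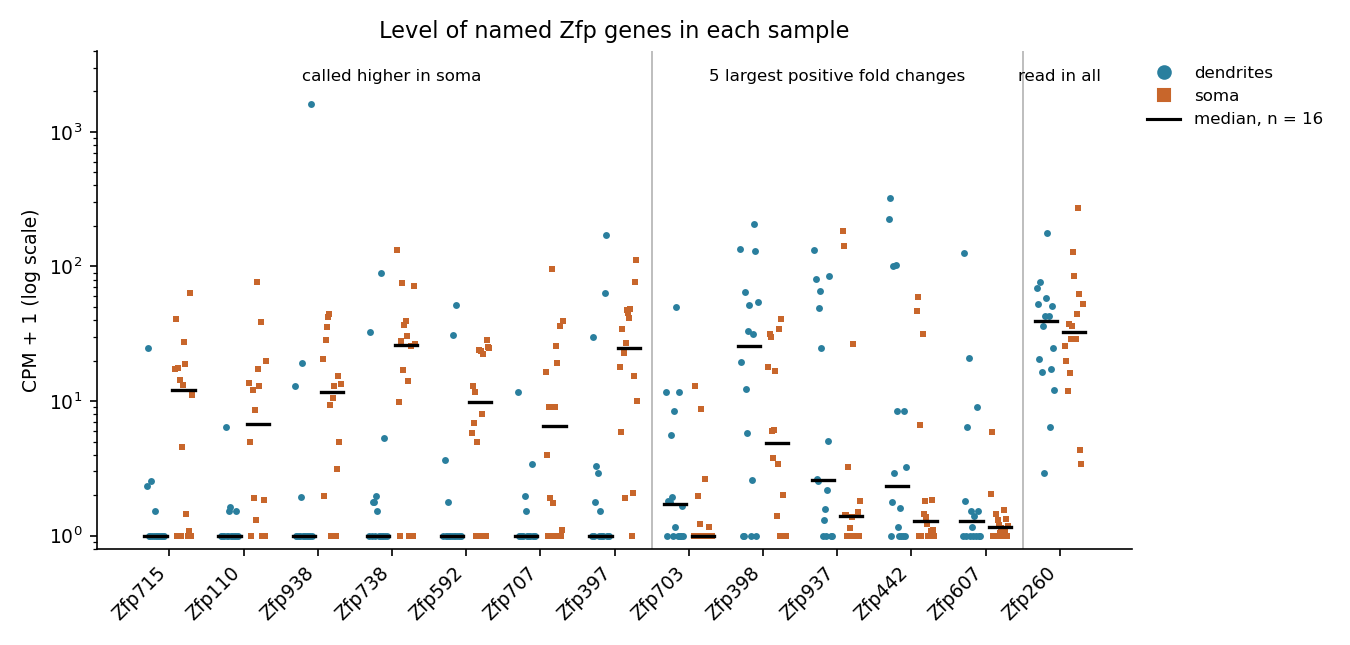
CPM + 1 on a log scale (y axis) of 13 Zfp genes in each of the 16 dendrite samples (blue circles) and 16 soma samples (orange squares), with black lines at the medians. The 7 genes called higher in soma have a dendrite median of 0 CPM, and single dendrites reach 1610 CPM (Zfp938) and 171 CPM (Zfp397). The 5 genes with the largest positive fold changes and Zfp260 overlap between compartments.

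No Zfp gene passed the edgeR test on the dendrite side, and the 5 largest positive values were those of Zfp703, Zfp398, Zfp937, Zfp442 and Zfp607. Zfp703, a transcriptional corepressor with no C2H2 pattern of the kind searched, had reads in 10 dendrites (median 0.718 and highest value 48.7 CPM) and in 6 somas (median 0 and highest value 11.8 CPM). It was higher in dendrites in 9 of 13 neurons, with a value of 2.72 on the log2 scale (SE 1.16, edgeR, adjusted p = 0.114). It passed the filter with exactly 16 samples. Zfp398 had reads in 12 samples of each compartment, with medians of 24.5 CPM in dendrites and 3.88 in somas and highest values of 206 and 39.9 CPM. Dendrites were ahead in 9 of 15 neurons (log2 fold change 2.34, SE 1.74, adjusted p = 0.342). Zfp937 (2.22), Zfp442 (1.96) and Zfp607 (1.76) had adjusted p of 0.283, 0.330 and 0.286 (edgeR). For Zfp607, read as Zfp607a in the reference, the dendrites of neuron 2 at 124 CPM stood above all others, the next being 19.9 CPM, while no soma was above 4.94 CPM. Zfp607 had a log2 fold change of 4.45 without the block (adjusted p = 0.0425).

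Zfp260 was read in 16 dendrites, Zfp60 and Zfp931 in 15, and 15 members in 14, of which the 5 with the most dendrite reads are described here. None of these 8 was called, and the soma was higher in 5 to 12 of the 16 neurons. Zfp260, the only one with reads in all 32 samples, ranged from 1.91 to 177 CPM in dendrites (median 38.4) and from 2.38 to 271 CPM in somas (median 31.4). Dendrites were ahead in 9 of 16 neurons (log2 fold change 0.09, SE 0.98). Zfp706, a small protein with a single finger, had 429 ± 356 CPM in dendrites and 413 ± 138 in somas (SD, n = 16 each), with 14 dendrites and 16 somas with reads. The soma was higher in 8 of 16 neurons for Zfp706. Zfp536, a repressor of neuronal differentiation, had 390 ± 389 CPM in dendrites and 364 ± 203 in somas (SD, n = 16 each), also with the soma higher in 8 neurons. For Zfp536 the dendrites ranged from 0 in neurons 10 and 13 to 1551 CPM in neuron 12. Zfp91, a ubiquitin ligase, had 133 ± 117 and 93.8 ± 49.0 CPM (log2 fold change -0.24, SE 1.02), and Zfp651 had 84.3 ± 108 and 53.1 ± 55.5 CPM (0.15, SE 0.97). Zfp60, Zfp931 and Zfp664 had log2 fold changes of -1.76, 0.34 and -1.51, with adjusted p of 0.232, 0.894 and 0.305 (edgeR). The standard errors of these 8 log2 fold changes were 0.76 to 1.58, so differences of that size were not detectable. Larger differences could also be missed, as Zfp281 was not called at -4.00 (SE 1.33). The signs of Zfp260, Zfp651, Zfp931, Zfp706, Zfp536 and Zfp91 changed under other scalings or with a neuron left out.

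Members with known roles outside DNA binding were looked at as a list of 12 symbols, of which 10 were among the 190. All 10 had a log2 fold change below 0 (median -2.21), of which 6 stayed below 0 with dendrites rescaled to the median gene, 3 had an unadjusted p under 0.05 and 0 were called. Of all genes, 78.8% lay below 0, 51.0% after rescaling, and 26.7% had an unadjusted p under 0.05 on the soma side. Zfp598, the ubiquitin ligase that marks collided ribosomes, was read in 9 dendrites (highest value 43.3 CPM) and 15 somas (highest value 114 CPM). The soma was ahead in 13 of 15 neurons (log2 fold change -4.34, SE 1.49, adjusted p = 0.0618). Zfp830 had a value of -5.00 (adjusted p = 0.0596) with 11 of 13 neurons higher in the soma. It had reads in exactly 16 samples, 5 dendrites and 11 somas, so it passed the filter only through the compartment where it was high. Zfp207 (BuGZ), a protein of the mitotic spindle, had -2.86 (adjusted p = 0.118). The ribosome biogenesis factors Zfp622 and Zfp593 had -2.61 and -1.26 (adjusted p = 0.229 and 0.653). The RNA-binding proteins Zfp106, Zfp326 and Zfp346 had -1.31, -2.63 and -1.82 (adjusted p = 0.464, 0.256 and 0.328). Zfp365, which is expressed in neurons and binds Disc1, had -0.07 (SE 1.17), with 85.5 ± 105 CPM in dendrites and 49.9 ± 56.9 in somas (SD, n = 16 each).

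Of 15 symbols listed for transcription and development, 10 were members, with a median log2 fold change of -1.66 and 1 called, Zfp110. Of all genes, 5.71% were called higher in the soma, and their median was -1.49. Zfp281, a factor known from embryonic stem cells, was read in 10 dendrites (median 2.36 and highest value 246 CPM) and in all 16 somas (5.46 to 190 CPM, median 75.0). Its soma was higher in 14 of 16 neurons, and its value of -4.00 (SE 1.33) missed the threshold with an adjusted p of 0.0557 in edgeR's test. Its relative Zfp148 had -0.69 (adjusted p = 0.662), with reads in 14 dendrites and 16 somas. Zfp462, with 33 fingers by the pattern, had -3.48 (adjusted p = 0.158). Zfp292 had -0.86, and the dendrites of a single neuron held 1524 CPM where their median was 6.58. Zfp410, an activator of the chromatin remodeler gene Chd4, had -1.88 (adjusted p = 0.437), Zfp384 -1.44 and Zfp644 0.09. Of 6 symbols listed for imprinting and repeats, 2 were members and neither was called. Zfp445, which protects imprints, had 101 ± 117 CPM in dendrites and 106 ± 138 in somas (SD, n = 16 each, log2 fold change -1.18). Zfp932, a silencer of retroviral repeats, had -1.83 with 6 of 12 neurons higher in the soma.

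The proteins of the members, translated from the longest coding sequence of each gene in GENCODE on GRCm38, were searched for C2H2 fingers and for a KRAB pattern. All 190 were found in the annotation as protein-coding genes, 187 under the same symbol. A KRAB pattern beside C2H2 fingers was found in 73 members, and a further 111 had C2H2 fingers without it. No finger was found in 6, of which Zfp935 had a KRAB pattern and Zfp259, Zfp330, Zfp365, Zfp703 and Zfp839 had neither. The pattern is a text match and misses diverged boxes. Of the 73 KRAB members with fingers, 5 were called higher in the soma (6.85%), of the other C2H2 members 2 (1.80%), and of the 6 without fingers 0, where 5.71% of all genes were called. The median log2 fold changes were -2.69, -2.23 and -0.57, beside -1.49 for all genes. The difference between these classes was not tested. The median number of dendrites with reads was 8 for KRAB members and 9 for other C2H2 members, with 13 and 14 somas. By the number of fingers, 0 of 32 members with 1 to 4 fingers were called, 4 of 53 with 5 to 9, 1 of 64 with 10 to 14 and 2 of 35 with 15 or more, with medians of -2.22, -2.51, -1.71 and -3.05. By position, chromosome 7 held 41 members and 3 of the calls (median -2.06). Chromosome 17 held 24 members with a median of -3.10 and 0 calls, and 13 of them had an unadjusted p under 0.05 on the soma side, where 26.7% of all genes did. Neighbouring members of such clusters can be near-identical in sequence, and only uniquely mapped reads were counted, so values of close copies are uncertain.

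The partners of KRAB proteins, a list of 23 corepressor genes of which 21 were tested, had a median log2 fold change of -2.48 (all genes -1.49). Of these, 1 was called higher in the soma (4.76%, all genes 5.71%) and 0 in dendrites (all genes 0.827%). The called gene was Hdac1, a histone deacetylase (-4.63, adjusted p = 0.0410, edgeR), which had reads in 7 dendrites and 16 somas. Trim28, the adaptor itself, had 37.6 ± 52.9 CPM in dendrites and 52.7 ± 59.7 in somas (SD, n = 16 each), with a log2 fold change of -1.18 (adjusted p = 0.471). Setdb1, the histone methyltransferase that Trim28 recruits, had -4.28 (adjusted p = 0.0632) with the soma higher in 13 of 16 neurons. Chd3 was the only gene of the list above 0, at 0.87 (adjusted p = 0.379), with dendrites higher in 13 of 16 neurons. With dendrites rescaled to the median gene, 8 genes of the list were above 0. In that fit 0 of the list were called higher in the soma and 1, Chd3, higher in dendrites, where 548 of all 10880 genes were. Other families named for zinc fingers gave 0 to 2 calls each, where 5.71% of all genes were called higher in the soma. For Zbtb genes 24 of 40 were tested, with 0 called and a median of -1.56. For Zscan and Zkscan genes these were 14 of 29, with 2 called (14.3%) and a median of -1.89, for Zc3h genes 13 of 19, with 1 called (7.69%) and -1.98, and for the palmitoyltransferases Zdhhc 17 of 23, with 1 called (5.88%) and -2.71. All 4 of these calls were on the soma side.

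Which 3′ end was used could be compared for few members. The isoform table gave 2 or more 3′ end features for 150 members and 1 for 40, and 30 members had at least 10 reads on their 2 top features in both compartments of at least 5 neurons. Features are numbered without coordinates, so the share given is that of the higher-numbered feature, and its place along the 3′UTR was not analysed here. None of the 30 passed the exact signed-rank test at p under 0.1 (0 genes), where 8.44% of 3508 genes did. Most of them could not have passed, since 21 had a difference other than 0 in 4 neurons or fewer, where the smallest exact p is 0.125. That left 9 members able to pass, too few to set against the share of all genes, and 7 with the 6 neurons needed for a p under 0.05. Over all genes tested no adjusted p passed (0 genes), and 159 of the 3508 genes had an unadjusted p under 0.05. The smallest p was that of Zfp148 (p = 0.109, exact, two-sided), with 34.6% ± 49.1 of reads on the higher-numbered feature in dendrites and 74.1% ± 28.5 in somas (SD, n = 9 neurons). It was lower in dendrites in 6 neurons and higher in 1. Zfp87 had 99.9% ± 0.294 in dendrites and 33.1% ± 41.5 in somas (SD, n = 5, exact p = 0.125), higher in dendrites in 4 neurons. Zfp207 (93.9% and 71.1%, n = 8) and Zfp365 (1.28% and 5.93%, n = 10) also had an exact p of 0.125. For Zfp260 the shares were 21.4% and 2.21% (n = 9, exact p = 0.250), and for Zfp277 79.0% and 30.8% (n = 5, exact p = 0.250). Their adjusted p was 1.

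The compartment difference was also compared between neurons with 3 and with 2 rounds of amplification, by an interaction term in the edgeR fit with the neuron as a block. No gene passed (0 of 10880 genes, with 288 or 2.65% at an unadjusted p under 0.05). Among the Zfp genes 5 had an unadjusted p under 0.05, the smallest being 0.0187. Fitted alone, the 12 neurons with 2 rounds gave 2 calls on the soma side and a median log2 fold change of -2.57, and the 4 neurons with 3 rounds gave 0 calls and a median of -1.64. The medians of all genes were -1.73 and -0.62, and 3.25% and 0.00919% of them were called higher in the soma. With 3 rounds only 1 of all genes was called on that side, so the 0 calls are not particular to the Zfp genes.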

How the data were processed

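Poly-adenylated RNA of the soma and dendrites of 16 neurons was sequenced in stranded libraries. Adapters and poly-A stretches were trimmed by the authors, who aligned with STAR 2.4.0 (version from the submitters' processing notes) to mm10 and used VERSE on reads that mapped uniquely. What was deposited are raw read counts: on the union of 3′UTRs per gene, on 3′ end isoform features and, per sample, on exons.

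Genes read in 16 or more samples were fitted with edgeR 4.0.16 (R 4.3.3; TMM, quasi-likelihood, robust, neuron as block) and called at an adjusted p of at most 0.05; DESeq2 1.42.0 was the alternative tool. Standard errors were taken from the log2 fold change and the F statistic. Other values came from Python 3.11.15, NumPy 2.4.6, pandas 2.3.3 and SciPy 1.17.1. On simulated data, edgeR called 67 of 165 genes changed by 4 on the log2 scale and 2 of 9740 unchanged genes. On such data the isoform test at p under 0.1 called 194 of 200 genes with a shifted share and 271 of 3308 unchanged genes. In the measured data, 21 of the 30 Zfp genes could reach no exact signed-rank p below 0.125. How often the isoform test would call a shifted share in these 30 was not tested. The C2H2 pattern was C, 2 to 4 residues, C, 12 residues, H, 3 to 5 residues, H. Both compartments are paired because they come from the same cell; the correlation across genes of the deviations from the compartment mean was 0.0833 ± 0.0763 (SD, n = 16) within and -0.00506 ± 0.0534 (n = 240) between neurons. Among 120 pairs of libraries per compartment, 0 held identical counts. A replicate is a neuron; which neurons shared a culture is not given in the sources used here, so p-values measure the spread between these neurons. The precision of a value comes from that spread, and intervals from reads were not given.

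The members and lists were chosen with earlier results of these data known. Genes named are those called, the 5 with the largest positive log2 fold change, the 8 found in most dendrites (ties by the number of dendrite reads, which took 5 of the 15 members with 14 dendrites), the 5 with the smallest isoform p (ties included), listed members with a known role, and those at the detection threshold. Alternatives covered the tool, scaling, filter, block, exon counts, rounds of amplification and each neuron left out.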

Additional observations from a re-analysis of the deposited data

How the results depend on the processing

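Detection favoured the soma under each alternative tried (the difference was 39.0 genes at equal reads, 67.9 from 10 reads, 49.6 with 2 rounds and 45.5 with 3). The number of members called higher in the soma, 7 with the block for neuron, was 1 without the block, 94 with DESeq2, 15 with DESeq2 size factors in edgeR, 0 with dendrites rescaled to the median gene, 0 without the filter, 0 with at least 10 reads in 16 samples (94 members tested), 2 on exon counts, 2 with 2 rounds and 0 with 3. Without each neuron in turn it was 0 (neuron 16) to 22 (neuron 5), with 14 without neuron 2. It fell to 2 without neurons 3, 4 or 10, to 3 without neurons 9, 13 or 15, and to 4 without neurons 1, 6 or 7. The share of all genes called higher in the soma moved as well. It was 0.708% without the block (members 0.526%), 46.2% with DESeq2 (49.5%) and 9.26% with DESeq2 size factors (7.89%). On exon counts it was 2.62% (members 1.21%), with 2 rounds 3.25% (1.05%) and with 3 rounds 0.00919% (0%). For the leave-one-out fits it was not compared. The number of members called higher in dendrites was 0 in each leave-one-out fit, 1 without the block and 2 with DESeq2. The median log2 fold change of the members was -0.24 without the block and -0.84 after rescaling, and -2.55 to -1.85 without each neuron. Relative to all genes it was -2.14 without the filter and -0.93 to -0.73 without each neuron. The sign-flip test of isoform shares gave 1 member at p under 0.1 in place of 0. The causes were not tested. Of 373 values of 39 named genes under 10 alternatives, 269 kept direction and side of the threshold, 39 lost the call, 17 gained it and 48 changed sign.

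The log2 fold change reversed for these genes. Without the block for neuron it was 2.84 for Zfp938, -0.28 for Zfp260, 0.0542 for Zfp706, 0.10 for Zfp536, 0.51 for Zfp91, 0.0861 for Zfp106, 0.0744 for Zfp593, 0.21 for Zfp346, 0.78 for Zfp365, 0.0402 for Zfp462, 1.65 for Zfp292, 0.35 for Zfp148, 1.03 for Zfp410, 0.75 for Zfp369 and 0.10 for Zfp932. With dendrites rescaled to the median gene it was 0.82 for Zfp706, 1.09 for Zfp536, 1.25 for Zfp91, 0.18 for Zfp106, 0.15 for Zfp593, 1.42 for Zfp365, 0.62 for Zfp292, 0.79 for Zfp148 and 0.29 for Zfp445. With 3 rounds alone it was -2.02 for Zfp398, 0.28 for Zfp536, 0.0719 for Zfp91, 0.0810 for Zfp106, 1.91 for Zfp365, 2.14 for Zfp292, -0.74 for Zfp644, 1.27 for Zfp445 and 0.55 for Zfp932. With 2 rounds alone it was -0.48 for Zfp260, -0.69 for Zfp931 and -0.15 for Zfp651. With DESeq2 it was -0.19 for Zfp260, -0.13 for Zfp651 and -0.14 for Zfp644. With DESeq2 size factors it was -0.19 for Zfp260, -0.14 for Zfp651 and -0.12 for Zfp644. With library totals only it was -0.0027 for Zfp260. On exon counts it was 1.76 for Zfp938, -0.83 for Zfp260 and 0.0767 for Zfp365. With at least 10 reads in 16 samples it was 0.0502 for Zfp91 and 0.23 for Zfp365. Without each neuron in turn the values that changed sign ranged from -0.15 to 0.62 for Zfp260, from -0.43 to 0.51 for Zfp365, from -0.62 to 0.17 for Zfp536, from -0.45 to 0.87 for Zfp644, from -0.11 to 0.64 for Zfp651, from -0.49 to 0.29 for Zfp91 and from -0.11 to 1.10 for Zfp931.

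The dendrites with the fewest reads on 3′UTRs (646521, neuron 2) held 168 of the members and those of neuron 15, with 2235244 reads, held 27. These samples also differed in rounds of amplification (3 and 2) and in ERCC spike-in reads (72 and 283471). The part of read depth in their difference was not tested. At equal reads the difference between compartments was 39.0 of 48.6 genes. As a share of genes it was 20.5 of 25.6 points for the members and 14.5 of 19.2 points for all genes tested.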
